A study of Saccharomyces cerevisiae with 24 samples.

Results

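The 8 genes described here encode the cytosolic Hsp70 chaperones of budding yeast and their Hsp110 relatives. They are SSA1 (YAL005C), SSA2 (YLL024C), SSA3 (YBL075C) and SSA4 (YER103W), SSB1 (YDL229W) and SSB2 (YNL209W), and SSE1 (YPL106C) and SSE2 (YBR169C). They were chosen by these systematic names among the 7127 features of the count table, 6600 of which are mRNA features. All 8 were found, and all 8 had enough counts to be tested, with 966 to 126052 counts in a library.

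Hsp70 proteins hold exposed stretches of unfolded proteins and let them go again in a cycle driven by ATP. J-domain proteins start that cycle, and nucleotide exchange factors, among them the Hsp110 proteins Sse1 and Sse2, end it. Ssa1 and Ssa2 are the general Hsp70s of growing cells, Ssa3 and Ssa4 are known from stressed cells, and Ssb1 and Ssb2 sit on the ribosome and meet chains as they are made. Heat shock factor Hsf1 and the general stress factors Msn2 and Msn4 are known to drive heat-induced chaperone genes.

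Transcripts were measured by mRNA sequencing in W303 shuffle strains, in which NPL3 is carried on the plasmid pRS315, a low-copy LEU2 vector. Npl3 is an SR-like protein that binds nascent mRNA and takes part in its processing and export. The plasmid held npl3-F162Y (first RNA recognition motif), npl3-P196D-A197D (the linker between the motifs), npl3-F245I (second motif) or wild-type NPL3. All strains shared MATa, GAL+ and the same auxotrophic alleles at URA3, TRP1, HIS3 and LEU2, besides ade2-1 and can1-100, and the NPL3 strain carried its wild-type gene on the same plasmid. Cultures in mid-log phase in YPD either spent 1 hour at 37 °C or stayed at 30 °C. Each of the 8 groups of strain and temperature had 3 libraries. Whether the 3 libraries of a group are separate cultures is not in the labels, and the p-values therefore reflect the scatter among libraries, which may be technical. In whole-culture RNA, more cells with a transcript and more of it per cell cannot be told apart.

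Counts assigned to genes ranged from 15832309 to 34740383 per library. Replicate 1 of NPL3 at 37 °C stood apart on the first principal component (51.5% of the variance), at -1.29 against -11.2 and -11.4 in the other replicates of its group, while the 37 °C libraries of the mutants lay between -28.4 and -20.8 and the 30 °C libraries of NPL3 between 31.5 and 33.7. The main values for the members in the comparisons that use it are also given without it. The NPL3 transcript was present in every strain, and was 1.33-fold, 1.56-fold and 1.78-fold higher in npl3-F162Y, npl3-P196D-A197D and npl3-F245I than in NPL3 at 37 °C. At 30 °C it was 1.34-fold and 1.62-fold higher in npl3-F162Y and npl3-P196D-A197D, and its 1.04-fold in npl3-F245I did not pass (adjusted p = 0.425 in edgeR). It rose 1.61-fold with the shift in npl3-F245I alone of the 4 strains, and the interaction passed there (log2 0.77, adjusted p = 3.11e-07, edgeR). Of the genes that mark the mating type, the a-cell genes MFA1, MFA2, STE2 and BAR1 had group means of 49.9 to 870.1 CPM (counts scaled to one common library size, with TMM factors). The alpha-cell genes MF(ALPHA)1, MF(ALPHA)2 and STE3 had group means of 0.50 to 21.2 CPM, and SAG1 52.9 to 107.9 CPM. Of the 4 a-cell genes, 4, 3 and 4 were lower in npl3-F162Y, npl3-P196D-A197D and npl3-F245I than in NPL3 at 30 °C, and in the interaction with temperature all 4 passed as higher in each mutant, with or without replicate 1 of NPL3 at 37 °C. At 37 °C 2, 1 and 3 of the a-cell genes were lower in the mutants and 1, 1 and 0 higher. Of the 4 alpha-cell genes, 3 were higher in each mutant at 30 °C and 1 was lower in npl3-F162Y. At 37 °C 3, 3 and 2 of them were higher and 0 lower. The part of NPL3 and of these 8 genes in the results below was not tested.

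The 2 closest pairs of the family are near copies, and sequence decides how well their counts can be told apart. The coding sequences of SSA1 and SSA2 are 96.4% identical, with 383 identical bases in a row, and those of SSB1 and SSB2 are 97.4% identical, with 563 in a row. SSA3 and SSA4 share 76.6% of aligned coding bases, and SSE1 and SSE2 share 71.8%. Of all 75-base stretches of a coding sequence, 51.9% in SSA1, 52.2% in SSA2 and 36.3% in SSB1 and in SSB2 occur more than once in the reference genome. In SSA3, SSA4, SSE1 and SSE2 that share was 0%, even for 50-base stretches. The treatment of reads with several matches was not given in the sources used here, so values of SSA1, SSA2, SSB1 and SSB2 are uncertain as single genes, and their pair sums are given too. If such reads were left out of the counts, the pair sums are too low as well. Level orders and shares that set the near copies beside SSA3, SSA4, SSE1 or SSE2 are uncertain for the same reason. The stretch below, coding bases 115 to 189 of both genes, is shown because it holds differences that do separate SSA1 from SSA2. Its sequence is from RefSeq, build R64, of the reference strain and not of W303 (SSA1 at chrI:141243-141317, SSA2 at chrXII:97297-97371, minus strand, 5′ to 3′). Capitals mark the 11 bases that differ.
SSA1: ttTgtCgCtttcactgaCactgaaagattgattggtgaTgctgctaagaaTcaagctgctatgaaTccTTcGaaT
SSA2: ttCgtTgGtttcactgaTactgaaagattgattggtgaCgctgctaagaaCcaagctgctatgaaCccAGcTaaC

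The sequences upstream of 4 members are shown because these genes had the largest changes with temperature. Each is the 300 bases that end 51 bases before the start codon (RefSeq, build R64, 5′ to 3′ on the gene's strand). They are chrI:141482-141781 on the minus strand for SSA1, chrV:364239-364538 on the plus strand for SSA4, chrII:576047-576346 on the minus strand for SSE2 and chrII:86499-86798 on the minus strand for SSA3. Capitals mark matches to a pair of heat shock element units (GAANNTTC or TTCNNGAA, which both read the same on either strand) and to the stress response element (AGGGG, or CCCCT on the other strand). No match of one kind overlaps one of the other in the 8 genes.
SSA1: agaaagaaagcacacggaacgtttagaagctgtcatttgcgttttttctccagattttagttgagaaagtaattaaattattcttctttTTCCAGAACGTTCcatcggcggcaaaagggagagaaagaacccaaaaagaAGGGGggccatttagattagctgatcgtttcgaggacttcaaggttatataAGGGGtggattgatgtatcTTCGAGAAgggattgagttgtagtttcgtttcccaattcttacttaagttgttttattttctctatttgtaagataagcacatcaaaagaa
SSA4: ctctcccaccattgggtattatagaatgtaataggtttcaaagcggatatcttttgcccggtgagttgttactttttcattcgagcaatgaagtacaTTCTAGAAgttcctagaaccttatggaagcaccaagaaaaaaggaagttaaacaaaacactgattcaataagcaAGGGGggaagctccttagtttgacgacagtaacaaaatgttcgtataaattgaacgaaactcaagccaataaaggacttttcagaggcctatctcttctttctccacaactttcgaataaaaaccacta
SSE2: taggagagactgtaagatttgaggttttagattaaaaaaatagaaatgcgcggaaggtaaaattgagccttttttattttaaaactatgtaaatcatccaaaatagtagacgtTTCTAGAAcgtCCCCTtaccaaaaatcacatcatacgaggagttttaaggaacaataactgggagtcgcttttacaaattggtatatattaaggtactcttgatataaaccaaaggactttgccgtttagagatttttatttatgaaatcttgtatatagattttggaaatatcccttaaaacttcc
SSA3: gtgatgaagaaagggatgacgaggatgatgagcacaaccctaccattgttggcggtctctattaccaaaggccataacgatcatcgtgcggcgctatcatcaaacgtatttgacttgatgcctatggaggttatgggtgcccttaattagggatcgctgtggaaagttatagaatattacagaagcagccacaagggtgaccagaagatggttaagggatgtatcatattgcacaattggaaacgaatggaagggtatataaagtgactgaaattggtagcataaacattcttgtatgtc
The heat shock element pair had 3 matches in SSA1, 4 in SSA2, 3 in SSE1, 1 each in SSA4 and SSE2, and 0 in SSA3, SSB1 and SSB2. Of 6001 promoter windows of the same length, 22.9% held at least 1 match and 3.75% held at least 2. The stress response element had 2 matches in SSA1, 1 each in SSA4 and SSE2 and 0 in the other members, and 22.9% of the 6001 windows held it. The window of SSA3 includes 77 bases of a neighbouring gene (YBL074C). A match is a description of these letters, and a window with 0 matches says nothing about binding.

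Transcript levels within the family spanned a wide range at 30 °C. On the CPM per kb scale, which divides by coding length, SSB1 was highest in each strain, at 1176 ± 30.6 in npl3-F162Y, 1282 ± 27.2 in npl3-P196D-A197D, 1331 ± 38.9 in npl3-F245I and 1509 ± 35.9 in NPL3 (mean ± SD, n = 3). SSA2 came next and SSB2 after it, except in npl3-F245I, where SSB2 (1055 ± 31.2) lay above SSA2 (904.3 ± 42.3). SSE1 and SSA1 followed in each strain. SSA3, SSA4 and SSE2 lay far below, between 31.1 and 52.7 CPM per kb as group means. In NPL3 the lowest was SSA3 (31.1 ± 0.83), whereas in each mutant it was SSA4, at 38.6 ± 0.99 in npl3-F162Y, 33.3 ± 0.62 in npl3-P196D-A197D and 34.8 ± 1.12 in npl3-F245I. Of neighbours in this order at 30 °C, the libraries of SSE2 and SSA3 overlapped in npl3-F245I and those of SSA4 and SSE2 in NPL3, and no other neighbours overlapped.

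The order was another one after 1 hour at 37 °C. SSA1 and SSA2 led in each strain, with 1640 ± 152 and 1514 ± 96.3 CPM per kb in npl3-F162Y, and 1441 ± 260 and 1433 ± 165 in NPL3. Their libraries overlapped in npl3-F162Y, npl3-F245I and NPL3. SSA3 was the lowest member in NPL3, at 58.0 ± 5.49 CPM per kb, and the next one, SSE2, stood at 132.8 ± 27.3. In npl3-F162Y SSA3 stood at 262 ± 13.9 CPM per kb, above SSE2 at 214 ± 3.54. In npl3-F245I SSA3 (210.4 ± 13.6) and SSE2 (208.8 ± 7.55) overlapped, and in npl3-P196D-A197D SSA3 (165 ± 14.7) stayed below SSE2 (191.7 ± 9.70). Together the 8 genes took 1.26 ± 0.060%, 1.19 ± 0.038% and 1.28 ± 0.041% of all assigned counts at 37 °C in npl3-F162Y, npl3-P196D-A197D and npl3-F245I, against 1.09 ± 0.097% in NPL3, where replicate 1 had the lowest share, 0.986%.

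**Figure D1:**
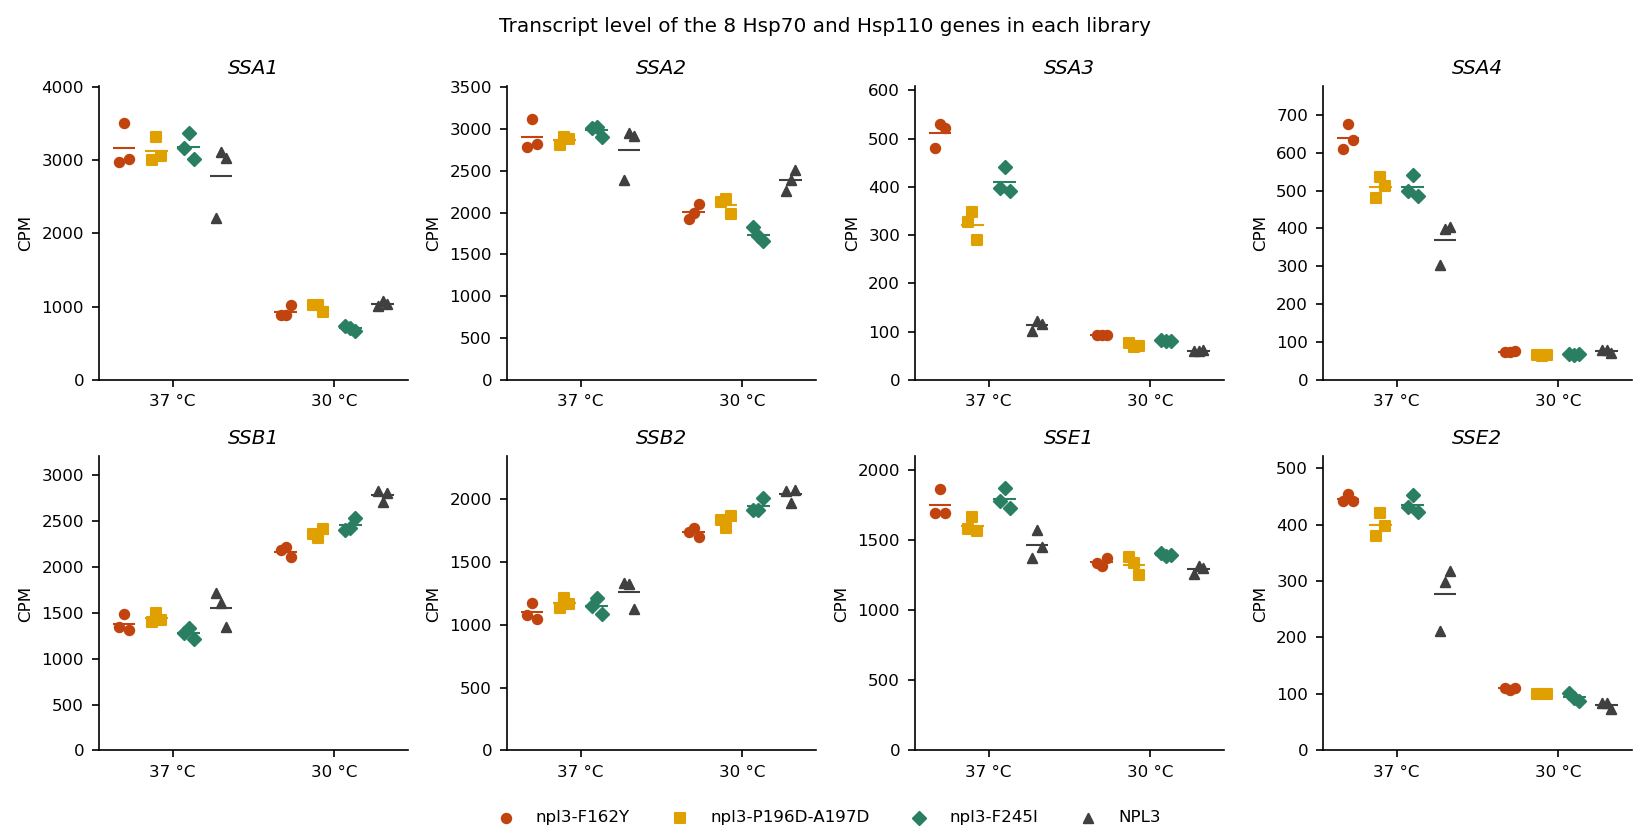
Transcript level of each member in each library, in CPM (vertical axes, linear from 0), at 37 °C and 30 °C; each symbol is 1 library, each line the mean of 3, and colours and shapes give the strain. SSA3 at 37 °C lies at 291 CPM or more in every mutant library and at 122 CPM or less in every NPL3 library, while SSA1 and SSA2 of the mutants overlap NPL3 at 37 °C.

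The first comparison asks what the shift does to each gene. All 8 members passed the test in every strain (edgeR's quasi-likelihood test, Benjamini-Hochberg adjusted p under 0.05). SSA1, SSA2, SSA3, SSA4, SSE1 and SSE2 rose and SSB1 and SSB2 fell. Over all 6518 genes tested, 61.3%, 61.9% and 68.6% passed in npl3-F162Y, npl3-P196D-A197D and npl3-F245I and 67% in NPL3, so the number of members that passed says little by itself. The directions and sizes differ more from the background: 34.4%, 33.4% and 37.8% of all genes rose in the mutants and 34.1% in NPL3, and 27%, 28.5% and 30.8% fell in the mutants and 32.9% in NPL3. The median log2 change of the 8 members was 1.15, 1.06 and 1.48 in the mutants and 0.56 in NPL3, against 0.01 to 0.04 over all genes. With library totals in place of TMM factors the median of all genes moved to between 0.15 and 0.21, and the share of higher calls among all genes called was 72.5 to 76.7% in place of 50.9 to 56%; the 8 members kept their directions and calls.

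SSA4, the inducible Hsp70 of heat-stressed cells, rose most. In npl3-F162Y it had 610, 674.8 and 632.9 CPM at 37 °C, against 74.7, 72.5 and 76.2 CPM at 30 °C. In npl3-P196D-A197D it had 479.1, 536.6 and 512.1 CPM at 37 °C, against 64.6, 62.9 and 65.3 CPM at 30 °C. No library of either strain at 37 °C came near those at 30 °C. In npl3-F245I it had 498.1, 541 and 485 CPM at 37 °C, against 68.6, 64.7 and 68.3 CPM at 30 °C. In NPL3 it had 304.1, 397.1 and 404.1 CPM at 37 °C, against 78.8, 78.4 and 69.8 CPM at 30 °C. The groups did not overlap there either, and each NPL3 library at 37 °C lay below each mutant library. The log2 change was 3.10, 2.99 and 2.92 in the mutants and 2.28 in NPL3 (SE 0.08 each). By log2 change SSA4 ranked 5, 8 and 6 of 6518 genes in the mutants and 33 in NPL3.

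SSA3, the Hsp70 gene known from stationary-phase cells, was the member whose response differed most between strains. In npl3-F162Y it had 479.8, 530.1 and 522.5 CPM at 37 °C, against 93.6, 93.3 and 93.8 CPM at 30 °C. In NPL3 it had 101.3, 122 and 116.2 CPM at 37 °C, against 60.2, 59.1 and 62.3 CPM at 30 °C. The libraries of the temperatures did not overlap in either strain, but those of NPL3 lay much closer together. Its log2 change with the shift was 2.45, 2.18 and 2.33 in npl3-F162Y, npl3-P196D-A197D and npl3-F245I, against 0.90 in NPL3 (SE 0.07 each). These are 5.46-fold, 4.54-fold and 5.04-fold rises, against a 1.87-fold rise in NPL3. SSA3 ranked 11, 33 and 30 of 6518 genes by log2 change in the mutants and 474 in NPL3.

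SSE2, the inducible Hsp110 exchange factor, had 441.5, 454.1 and 441.2 CPM at 37 °C in npl3-F162Y, against 110.7, 107 and 111.4 CPM at 30 °C. In NPL3 it had 211.9, 298.9 and 318.6 CPM at 37 °C, against 84.7, 83.3 and 72.8 CPM at 30 °C, and the 37 °C and 30 °C libraries did not overlap in either strain. The log2 change was 2.02, 1.99 and 2.21 in npl3-F162Y, npl3-P196D-A197D and npl3-F245I and 1.79 in NPL3 (SE 0.10 each). SSA1, which had 2978, 3503 and 3012 CPM at 37 °C and 884.8, 885.5 and 1027 CPM at 30 °C in npl3-F162Y, rose by a log2 change of 1.76, 1.66 and 2.18 in the mutants and 1.42 in NPL3 (SE 0.10 each). The NPL3 value of SSA1 comes from 2202, 3109 and 3026 CPM at 37 °C and 1002, 1081 and 1035 CPM at 30 °C, with the lowest value at 37 °C in replicate 1.

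SSA2 and SSE1, members made in quantity at either temperature, rose less. SSE1, the main Hsp110, rose by a log2 change of 0.38, 0.28 and 0.36 in npl3-F162Y, npl3-P196D-A197D and npl3-F245I and by 0.18 in NPL3 (SE 0.05 each). SSA2 rose by 0.54, 0.45 and 0.78 in the mutants and by 0.21 in NPL3 (SE 0.06 each). In NPL3 the SSA2 libraries overlapped, with 2387, 2952 and 2916 CPM at 37 °C and 2263, 2385 and 2503 CPM at 30 °C. That call was lost without NPL3 replicate 2 at 37 °C (adjusted p = 0.0551 in the same edgeR test), and without replicate 1 the log2 change was 0.30. Summed as 1 row, SSA1 and SSA2 rose by a log2 change of 1.05, 0.96 and 1.34 in the mutants and 0.69 in NPL3. Their ratio per length changed with the shift: SSA1 over SSA2 was 1.08 ± 0.031, 1.08 ± 0.045 and 1.062 ± 0.040 in the mutants and 1.00 ± 0.071 in NPL3 at 37 °C, and 0.463 ± 0.022, 0.471 ± 0.0075 and 0.403 ± 0.0027 in the mutants and 0.434 ± 0.021 in NPL3 at 30 °C.

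The ribosome-bound pair fell together. SSB1 had 1348, 1485 and 1310 CPM at 37 °C in npl3-F162Y, against 2179, 2217 and 2106 CPM at 30 °C. In NPL3 it had 1714, 1605 and 1340 CPM at 37 °C, against 2831, 2705 and 2804 CPM at 30 °C. The groups did not overlap in either strain. Its log2 change was -0.65, -0.71 and -0.94 in npl3-F162Y, npl3-P196D-A197D and npl3-F245I and -0.84 in NPL3, and that of SSB2 was -0.66, -0.64 and -0.76 in the mutants and -0.69 in NPL3 (SE 0.06 each). Summed as 1 row the pair had -0.65, -0.68 and -0.86 in the mutants and -0.78 in NPL3. Of 138 genes for cytosolic ribosomal proteins, which make the particle that Ssb proteins bind, 132, 134 and 135 fell in the mutants and 135 in NPL3, with median log2 changes of -0.73, -0.74 and -0.97 in the mutants and -0.75 in NPL3. RPL9A (2.06-fold lower) and RPL1A (2-fold lower), proteins of the large subunit, fell most in NPL3. No member changed direction, in any strain, when single libraries were left out. Without replicate 1 of NPL3 at 37 °C, SSA1, SSA2, SSA3 and SSA4 rose in NPL3 by log2 changes of 1.56, 0.30, 0.97 and 2.40. SSE1 and SSE2 then rose by 0.23 and 1.94, and SSB1 and SSB2 had -0.92 and -0.74.

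**Figure D2:**
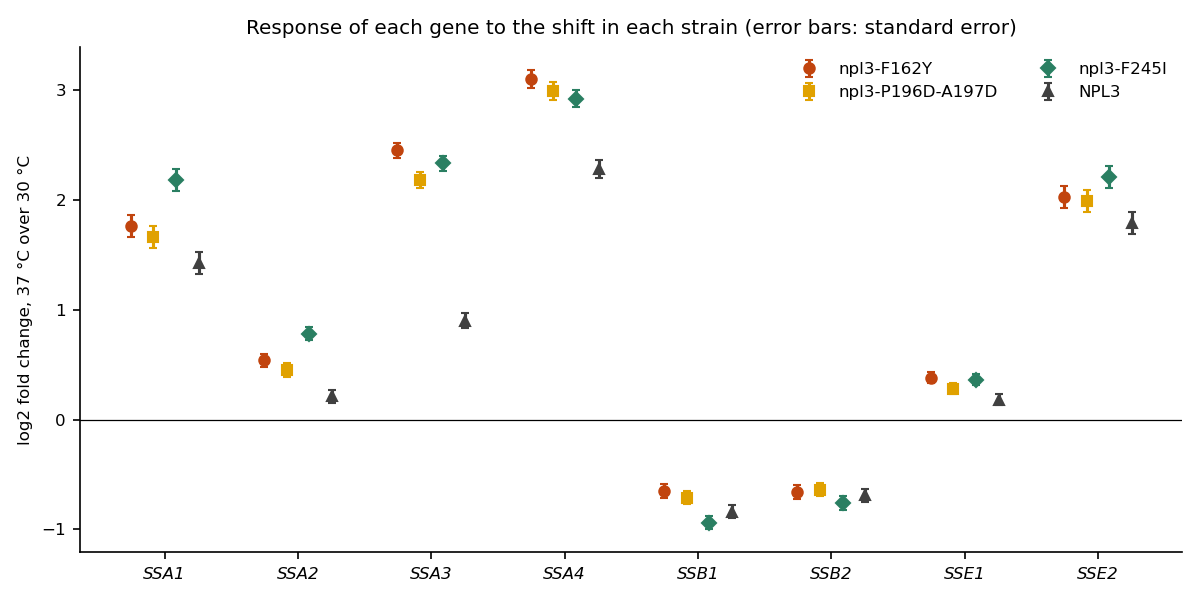
Log2 fold change, 37 °C over 30 °C, of each member in each strain, with the standard error of the fit (3 libraries per group); colours and shapes give the strain. SSA3 separates most between the mutants (2.18 to 2.45) and NPL3 (0.90), and SSB1 and SSB2 are below 0 in all 4 strains.

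The second comparison asks whether the response to the shift differed from that of NPL3, by the interaction of strain and temperature. The 3 tests share the NPL3 libraries. In npl3-F162Y 4 of the 8 members passed (SSA3, SSA4, SSA2 and SSE1), in npl3-P196D-A197D 2 (SSA3 and SSA4) and in npl3-F245I 5 (SSA1, SSA2, SSA3, SSA4 and SSE2), and each of them was higher than in NPL3. Of all genes tested, 20.5%, 10.6% and 28.9% passed in the 3 mutants, and 11.8%, 5.57% and 16.5% passed as higher and 8.68%, 5.08% and 12.4% as lower. The members' median was 0.28, 0.22 and 0.50, against 0.01 to 0.02 over all genes. With library totals the share of higher calls among all genes called was 25.2 to 46.2% in place of 52.3 to 57.6%.

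SSA3 had the largest difference of the family in each mutant. The rise of its log2 level with the shift was larger than in NPL3 by 1.55 ± 0.09 in npl3-F162Y, 1.28 ± 0.09 in npl3-P196D-A197D and 1.43 ± 0.09 in npl3-F245I (estimate ± SE; adjusted p = 2.36e-11, 8.78e-10 and 6.83e-11 in edgeR's quasi-likelihood test). Without replicate 1 of NPL3 at 37 °C the values were 1.47, 1.21 and 1.36. SSA3 ranked 5, 16 and 10 of 6518 genes by this difference. SSA4 came next in npl3-F162Y and npl3-P196D-A197D, with 0.82 ± 0.11 and 0.70 ± 0.11 (0.70 and 0.58 without that library), and had 0.63 ± 0.11 in npl3-F245I (0.52 without it).

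The other differences were smaller. In npl3-F245I the response of SSA1 was larger than in NPL3 by 0.76 ± 0.14, that of SSA2 by 0.57 ± 0.09 and that of SSE2 by 0.43 ± 0.14, and these were 0.62, 0.48 and 0.27 without replicate 1 of NPL3 at 37 °C. In npl3-F162Y SSA2 had 0.33 ± 0.09 (0.24 without it), a call that was lost with library totals (adjusted p = 0.0574, edgeR) and in a fit of these groups alone (0.0622, edgeR). SSA1 and SSA2 in npl3-F245I and SSA2 in npl3-F162Y were called lower than in NPL3 at 30 °C (-0.56, -0.46 and -0.25). Their differences from NPL3 at 37 °C were 0.20, 0.12 and 0.08, and none passed. SSE1 had 0.20 ± 0.07 in npl3-F162Y (adjusted p = 0.0484), which missed the threshold without any 1 of 8 libraries, replicate 1 of NPL3 at 37 °C among them (adjusted p 0.0566 to 0.136 in the same edgeR test). That call was also lost with library totals, RLE factors, no filter or a fit of these groups alone (adjusted p 0.0534 to 0.246, edgeR), and with DESeq2. SSE2 in npl3-F245I (adjusted p = 0.0251) no longer passed without any 1 of 5 other libraries (adjusted p 0.051 to 0.0672), or when replicate 2 at 37 °C of all 4 strains, whose titles carry numbers of another series, was left out (adjusted p = 0.0534 in the same edgeR test). For the near copies summed as 1 row, SSA1 and SSA2 passed in npl3-F162Y (0.36) and npl3-F245I (0.65) and not in npl3-P196D-A197D (0.27, adjusted p = 0.125 in edgeR). SSB1 and SSB2 passed in none of the 3 tests, with estimates between -0.10 and 0.19 and SE of 0.08 to 0.09, except that SSB1 in npl3-F162Y passed (0.27) without replicate 1 of NPL3 at 37 °C, and SSB1 in npl3-F245I passed without replicate 3 of that group. Their sum had 0.12, 0.10 and -0.08 and passed in none. With a term for the number series in the titles, 3 further members passed: SSA1 in npl3-F162Y (0.34), SSA2 in npl3-P196D-A197D (0.25) and SSE1 in npl3-F245I (0.18).

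At 37 °C the mutants were then compared with NPL3 directly. SSA3, SSA4, SSE1 and SSE2 passed as higher in all 3 mutants. SSB1 passed as lower in npl3-F162Y and npl3-F245I and SSB2 in npl3-F162Y. The members called thus numbered 6, 4 and 5 of 8 in npl3-F162Y, npl3-P196D-A197D and npl3-F245I, and 58.8%, 43.7% and 50.6% of all genes passed, 28%, 21.3% and 24% of all genes as higher and 30.8%, 22.4% and 26.5% as lower. Here too the number of members called says little by itself. The 3 comparisons share the NPL3 libraries.

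SSA3 at 37 °C had 479.8, 530.1 and 522.5 CPM in npl3-F162Y, 326.7, 347.5 and 290.7 CPM in npl3-P196D-A197D and 398.6, 440.6 and 391.7 CPM in npl3-F245I, against 101.3, 122 and 116.2 CPM in NPL3. None of the 4 strains overlapped another. SSA3 was 4.51-fold, 2.84-fold and 3.62-fold higher in npl3-F162Y, npl3-P196D-A197D and npl3-F245I (log2 changes 2.17, 1.51 and 1.86, SE 0.07; adjusted p = 3.97e-18, 8.32e-15 and 1.04e-16 in edgeR). Without replicate 1 of NPL3 the folds were 4.29, 2.7 and 3.45. SSA3 ranked 24, 35 and 20 of 6518 genes by this log2 change. SSA4 was 1.73-fold, 1.38-fold and 1.38-fold higher, from the CPM given above, with no overlap between any mutant and NPL3 (log2 changes 0.79, 0.47 and 0.46, SE 0.07 to 0.08; 0.67, 0.35 and 0.34 without replicate 1).

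Of the Hsp110 genes, SSE2 was higher by a log2 change of 0.69, 0.53 and 0.65 in npl3-F162Y, npl3-P196D-A197D and npl3-F245I (SE 0.09 to 0.10). It had 380, 420.2 and 396.8 CPM in npl3-P196D-A197D and 430.6, 452.1 and 421.5 CPM in npl3-F245I, against the 3 NPL3 values above, and no mutant library reached as low as those of NPL3. Without replicate 1 of NPL3, whose SSE2 level of 211.9 CPM was the lowest, the log2 changes were 0.53, 0.37 and 0.49. SSE1 was higher by 0.26, 0.13 and 0.29 (SE 0.05). It had 1580, 1665 and 1565 CPM in npl3-P196D-A197D, against 1370, 1575 and 1451 CPM in NPL3, and these groups overlapped. These were 0.21, 0.08 and 0.25 without replicate 1 of NPL3. The call in npl3-P196D-A197D (adjusted p = 0.0398) was lost without replicate 1, without replicate 3 of NPL3 or without replicate 1 or 2 of the mutant (adjusted p 0.0553 to 0.196, the same edgeR test).

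SSA1 and SSA2 did not pass in any mutant at 37 °C. SSA1 had log2 differences of 0.19, 0.17 and 0.20 (SE 0.10) and SSA2 of 0.08, 0.06 and 0.12 (SE 0.06) in npl3-F162Y, npl3-P196D-A197D and npl3-F245I. Without replicate 1 of NPL3 these were 0.05, 0.03 and 0.05 for SSA1 and -0.01, -0.03 and 0.02 for SSA2, while without replicate 2 or 3 of NPL3 SSA1 passed in npl3-F162Y and npl3-F245I and SSA2 in npl3-F245I. With library totals SSA1 and SSA2 both passed in npl3-F245I (0.27 and 0.19), and with a term for the number series in the titles SSA1 passed there (adjusted p = 0.0449, edgeR). The sum of SSA1 and SSA2 had 0.14, 0.11 and 0.16, none past the threshold. SSB1 had log2 differences of -0.17, -0.11 and -0.28 and SSB2 of -0.20, -0.11 and -0.13 (SE 0.06). Without replicate 1 of NPL3 these were -0.09, -0.03 and -0.21 for SSB1 and -0.15, -0.07 and -0.09 for SSB2. With all libraries the sum of SSB1 and SSB2 had -0.18, -0.11 and -0.22, and passed as lower in npl3-F162Y and npl3-F245I. The SSB1 call in npl3-F162Y was lost without replicate 1 of NPL3 (adjusted p = 0.201 in edgeR) and without 3 other libraries, and its libraries overlapped those of NPL3. The SSB2 libraries overlapped there too, and that call was lost in a fit of these groups alone (adjusted p = 0.105, edgeR). SSB2 in npl3-F245I (adjusted p = 0.0531, edgeR) passed with DESeq2, a replicate block or the number series term. Without replicate 3 of NPL3, SSB1 and SSB2 passed as lower in npl3-P196D-A197D (adjusted p = 0.0036 and 0.00711, edgeR). The 138 ribosomal protein genes had median log2 differences of -0.42, -0.28 and -0.54 in the 3 mutants, with 136, 129 and 137 of them passing as lower.

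Within the SSA group the make-up of the transcript pool differed. At 37 °C SSA3 and SSA4 together made up 15.8 ± 0.57%, 12.1 ± 0.26% and 12.9 ± 0.31% of the summed SSA level per kb in npl3-F162Y, npl3-P196D-A197D and npl3-F245I, against 7.98 ± 0.12% in NPL3. At 30 °C the shares were 5.38 ± 0.25%, 4.17 ± 0.24% and 5.70 ± 0.21% in the mutants, against 3.80 ± 0.24% in NPL3. The ratio of SSA3 to SSA4 per kb at 37 °C was 0.791 ± 0.023, 0.626 ± 0.058 and 0.799 ± 0.0070 in the mutants, against 0.306 ± 0.023 in NPL3. Each NPL3 library was at 0.329 or lower and each mutant library at 0.562 or higher. SSE2 made up 20.3 ± 0.64%, 19.9 ± 0.47% and 19.5 ± 0.076% of the SSE level at 37 °C in the mutants, against 15.8 ± 2.31% in NPL3, with the lowest NPL3 library at 13.4%. Since SSA1 and SSA2 together make up most of the sum, the share of SSA3 and SSA4 also moves with them. That share would be too high in every group if reads that match both SSA1 and SSA2 were left out of the counts, which is not known.

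**Figure D3:**
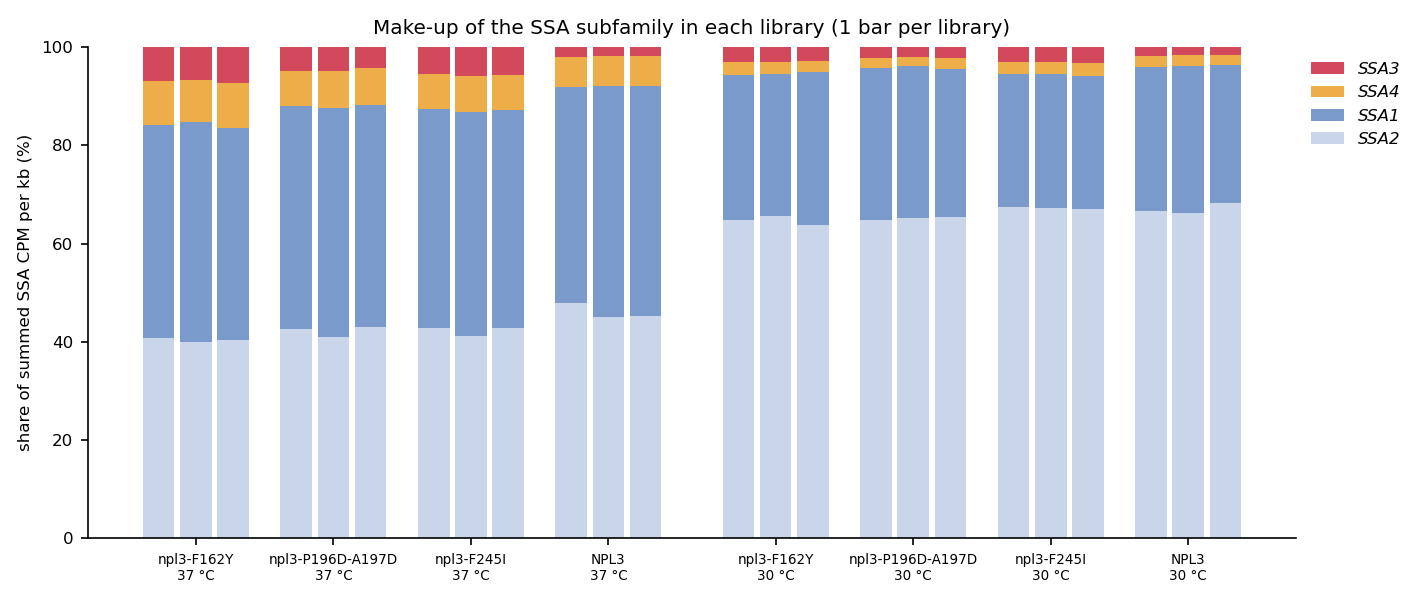
Share of each SSA gene in the summed SSA level per kb (vertical axis, %), 1 stacked bar per library, grouped by strain at 37 °C and at 30 °C. At 37 °C SSA3 and SSA4 together take 11.8% or more in each mutant library and 8.08% or less in each NPL3 library.

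At 30 °C the mutants also differed from NPL3, with SSA3, SSA2 and SSB1 called in all 3. In npl3-F162Y 5 of 8 members passed, in npl3-P196D-A197D 6 and in npl3-F245I 4, and 68.4%, 55.7% and 57.7% of all genes passed, 29.8%, 24.1% and 24.5% as higher and 38.6%, 31.7% and 33.3% as lower. As with the shift, the number of members that passed says little by itself. SSA3 was the member that passed as higher in each mutant. It had 93.6, 93.3 and 93.8 CPM in npl3-F162Y, 75.5, 68.2 and 69.3 CPM in npl3-P196D-A197D and 83.6, 80.1 and 80.4 CPM in npl3-F245I, against 60.2, 59.1 and 62.3 CPM in NPL3. The 4 strains did not overlap, and the log2 changes were 0.63, 0.23 and 0.43 (SE 0.07; adjusted p = 1.95e-08, 0.00758 and 9.80e-06 in edgeR). The value in npl3-P196D-A197D missed the threshold without replicate 1 of that mutant (adjusted p = 0.051, edgeR again). The log2 change of SSE2 was 0.45 (npl3-F162Y) and 0.32 (npl3-P196D-A197D), both called, while its 0.23 in npl3-F245I did not pass (adjusted p = 0.0592 in edgeR). That last value did pass with RLE factors, library totals, DESeq2 or a fit of these groups alone, and without replicate 3 of the mutant (adjusted p 0.00339 to 0.0448). SSE1 had 0.11 in npl3-F245I (adjusted p = 0.063 in edgeR), and it passed under 7 other settings (adjusted p 0.000383 to 0.0397). Its 0.06 in npl3-F162Y did not pass (adjusted p = 0.336, edgeR). With library totals or a fit of these groups alone it did (adjusted p = 0.00197 and 0.0108, edgeR). The SSE2 call in npl3-P196D-A197D was lost without NPL3 replicate 3 (adjusted p = 0.0614 in the same test).

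SSB1 and SSA2 passed as lower at 30 °C in all 3 mutants. SSB1 was lower by log2 changes of -0.36, -0.24 and -0.18 in npl3-F162Y, npl3-P196D-A197D and npl3-F245I (SE 0.06), with no overlap with NPL3. SSA2 was lower by -0.25, -0.19 and -0.46 (SE 0.06), and SSB2 by -0.23 (npl3-F162Y) and -0.16 (npl3-P196D-A197D). As pair sums, SSA1 and SSA2 had -0.22, -0.15 and -0.49 and SSB1 and SSB2 had -0.30, -0.20 and -0.13. The SSA sum in npl3-P196D-A197D and the SSB sum in npl3-F245I did not pass (adjusted p = 0.101 and 0.0658, edgeR), and the other 4 sums passed. The calls of SSA2 and SSB2 in npl3-P196D-A197D were each lost without any 1 of 2 and 3 libraries (adjusted p 0.0541 to 0.081), and that of SSB1 in npl3-F245I without any 1 of 3 (adjusted p 0.0519 to 0.0569, edgeR in each case). SSA1 passed in npl3-F245I, at 733.3, 702.6 and 672.7 CPM, against 1002, 1081 and 1035 CPM in NPL3 (log2 change -0.56, SE 0.10). All 3 npl3-F245I libraries lay below the lowest NPL3 library. SSA4 was lower in npl3-P196D-A197D (-0.24, adjusted p = 0.0186), a call lost without any 1 of 3 libraries (adjusted p 0.0594 to 0.0711, edgeR in each case). The median log2 difference of all genes was -0.04 in each comparison, and with library totals it was 0.02 to 0.08. On library totals the calls of SSA2 and SSB2 in npl3-F162Y, of SSA2, SSA4 and SSB2 in npl3-P196D-A197D and of SSB1 in npl3-F245I were lost, and each of these kept its direction.

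The mutants were also compared with each other. SSA3 passed in all 6 of these comparisons. It was lower in npl3-P196D-A197D than in npl3-F162Y by log2 changes of -0.67 at 37 °C and -0.40 at 30 °C, lower in npl3-F245I than in npl3-F162Y by -0.32 and -0.20, and lower in npl3-P196D-A197D than in npl3-F245I by -0.35 and -0.20 (SE 0.06 to 0.07). The calls at 37 °C held without any 1 library. At 30 °C the calls of npl3-F245I against npl3-F162Y and of npl3-P196D-A197D against npl3-F245I were lost without any 1 of 4 and 5 libraries (adjusted p 0.0538 to 0.072 and 0.0566 to 0.134, edgeR). Of all genes, 19.3%, 38.2% and 37.7% passed at 37 °C, 10.4%, 18.5% and 20.7% as higher and 8.93%, 19.7% and 17% as lower, in the same order. At 30 °C 25.2%, 33.7% and 28.2% passed, 14.1%, 16.8% and 16.6% as higher and 11.1%, 16.9% and 11.6% as lower. In that order 2, 2 and 3 of the 8 members passed at 37 °C and 1, 5 and 3 at 30 °C, numbers that say little by themselves.

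SSA4 at 37 °C was lower in npl3-P196D-A197D and in npl3-F245I than in npl3-F162Y, by -0.33 each, and its difference between npl3-P196D-A197D and npl3-F245I was 0.00 ± 0.07 (estimate ± SE). SSA1 and SSA2 at 30 °C were lower in npl3-F245I than in npl3-F162Y, by -0.41 and -0.21, and higher in npl3-P196D-A197D than in npl3-F245I, by 0.49 and 0.27. The SSA2 call against npl3-F162Y was lost without replicate 3 of either strain. At 37 °C the estimates for SSA1 between mutants lay between -0.03 and 0.01 (SE 0.10), none past the threshold. SSB1 and SSB2 were higher in npl3-F245I than in npl3-F162Y at 30 °C by 0.18 and 0.16, and SSB1 was higher (0.18) and SSE1 lower (-0.16) in npl3-P196D-A197D than in npl3-F245I at 37 °C. These 4 calls each missed the threshold without one or other of 2 to 4 libraries. As pair sums at 30 °C, SSA1 and SSA2 had -0.27 in npl3-F245I over npl3-F162Y and 0.34 in npl3-P196D-A197D over npl3-F245I, and SSB1 and SSB2 had 0.17 in the first of these, all past the threshold. The SSB sum in npl3-P196D-A197D over npl3-F245I at 37 °C (0.11) did not pass (adjusted p = 0.173 in edgeR).

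The chaperone genes around the family were taken as lists by function, with the 8 members left out. Hsf1 target genes numbered 23, and 22 rose with the shift in each mutant and 18 in NPL3, with median log2 changes of 1.03, 0.99 and 1.17 in npl3-F162Y, npl3-P196D-A197D and npl3-F245I and 0.74 in NPL3. HSP26, a small heat shock protein that holds aggregates, had the largest rise, at 4.80, 5.43 and 4.59 in the mutants and 3.92 in NPL3, and HSP82, the inducible Hsp90, had 2.40, 2.34 and 3.00 in the mutants and 2.06 in NPL3. The response was larger than in NPL3, by the interaction, for 11, 4 and 20 of the 23 genes in the 3 mutants (11.8%, 5.57% and 16.5% of all genes). The response was smaller for 0 of the 23, with medians of 0.34, 0.30 and 0.50. Without replicate 1 of NPL3 at 37 °C it was larger for 12, 5 and 20 and smaller for 0, 1 and 0, with medians of 0.20, 0.18 and 0.40, and with library totals it was larger for 6, 4 and 18. At 37 °C 18, 12 and 13 were higher than in NPL3 (28%, 21.3% and 24% of all genes), and these counts were 11, 7 and 10 without replicate 1 of NPL3. BTN2, a sorting factor for misfolded proteins, was higher by 2.31, 1.68 and 1.88 there. At 30 °C 5, 4 and 1 of the 23 were higher than in NPL3 and 5, 4 and 16 lower, with medians of 0.02, -0.05 and -0.21. Over all genes 29.8%, 24.1% and 24.5% were higher at 30 °C and 38.6%, 31.7% and 33.3% lower. HSF1 itself rose with the shift by 0.17, 0.21 and 0.34 in the mutants and 0.25 in NPL3, and its level was higher than in NPL3 in npl3-F245I at 37 °C (0.41) and 30 °C (0.33) and in npl3-F162Y at 30 °C (0.15).

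Of 22 Msn2 and Msn4 targets, 22 rose in each mutant and 20 in NPL3, with medians of 1.31, 1.43 and 1.92 in the mutants and 1.45 in NPL3. HSP12, a membrane-binding stress protein, rose by 2.81 in NPL3 and SOL4, an enzyme of the pentose phosphate pathway, by 2.27. The interaction was larger than in NPL3 for 4, 5 and 14 of the 22 in npl3-F162Y, npl3-P196D-A197D and npl3-F245I and smaller for 3, 0 and 0. Over all genes it was larger for 11.8%, 5.57% and 16.5% and smaller for 8.68%, 5.08% and 12.4%. Without replicate 1 of NPL3 at 37 °C the counts of the 22 targets were 4, 4 and 14 larger and 5, 6 and 1 smaller. In npl3-F245I at 30 °C 17 of the 22 were lower than in NPL3 and 2 higher (median -0.45). At 37 °C 6 were lower there and 6 higher (median -0.05). In npl3-F162Y and npl3-P196D-A197D 5 and 5 were lower and 8 and 7 higher at 30 °C. Over all genes in npl3-F245I, 33.3% were lower and 24.5% higher at 30 °C, and 26.5% and 24% at 37 °C.

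Of 17 partners of cytosolic Hsp70, 8, 7 and 7 rose and 4, 5 and 6 fell with the shift in the mutants, and 3 rose and 6 fell in NPL3. Over all genes tested, 34.4%, 33.4% and 37.8% rose in the mutants and 34.1% in NPL3. The shares that fell were 27%, 28.5% and 30.8% in the mutants and 32.9% in NPL3. With library totals 9 of the 17 partners rose and 4 fell in NPL3, and without its replicate 1 at 37 °C 4 rose and 6 fell. STI1, which links Hsp70 to Hsp90, rose by 1.06, 1.04 and 1.39 in npl3-F162Y, npl3-P196D-A197D and npl3-F245I and 0.86 in NPL3. SIS1, a J-domain protein essential for growth, rose by 0.74, 0.74 and 1.17 in the mutants and 0.40 in NPL3. YDJ1, the most general J-domain partner of Ssa proteins, rose by 0.23, 0.18 and 0.28 in the mutants, and its -0.00 in NPL3 did not pass (adjusted p = 0.957 in edgeR). FES1, an exchange factor that acts beside Sse1, rose by 0.35, 0.32 and 0.38 in the mutants and had 0.01 in NPL3 (adjusted p = 0.933 in the same test). FES1 rose in NPL3 (0.15) when its replicate 1 at 37 °C was left out, and YDJ1 (0.07) did not pass then. ZUO1 and SSZ1, which form the ribosome-bound partner of Ssb, fell by 0.52 and 0.32 in npl3-F162Y and by 0.57 and 0.33 in NPL3 on the log2 scale.

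The partners' response was larger than in NPL3 for 4, 2 and 7 of 17 genes in npl3-F162Y, npl3-P196D-A197D and npl3-F245I, and smaller for 0, 0 and 2. Over all genes it was larger for 11.8%, 5.57% and 16.5% and smaller for 8.68%, 5.08% and 12.4%. In npl3-F245I SIS1 (0.78), STI1 (0.53), FES1 (0.37) and YDJ1 (0.28) were among the 7, and JJJ1 (-0.34) and SSZ1 (-0.18) were the 2. Leaving out replicate 1 of NPL3 at 37 °C, the counts were 5, 2 and 7 larger and 0 smaller, and the 4 named values were 0.63, 0.39, 0.23 and 0.21. Of the 5 Hsp70 and Hsp110 genes of mitochondria and endoplasmic reticulum, 5 rose with the shift in each mutant and 3 in NPL3. KAR2, the Hsp70 of the endoplasmic reticulum, rose by 1.45, 1.31 and 1.60 in the mutants and 1.19 in NPL3. ECM10, another of the 5, rose by 0.49 in NPL3 (SE 0.05). SSC1, the main Hsp70 of mitochondria, rose by 0.43, 0.29 and 0.51 in the mutants, and its 0.05 in NPL3 did not pass (adjusted p = 0.435 in edgeR). The interaction of SSC1 passed in npl3-F162Y (0.38) and npl3-F245I (0.46), and that of KAR2 in the same 2 mutants (0.27 and 0.42). No other gene of the 5, ECM10 included, passed the interaction in any mutant. Without that library these were 0.32 and 0.40 for SSC1 and 0.20 and 0.35 for KAR2, all still called. The lists share genes: 5 partners, 3 Msn2 and Msn4 targets and 2 organellar genes are also Hsf1 targets.

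**Figure D4:**
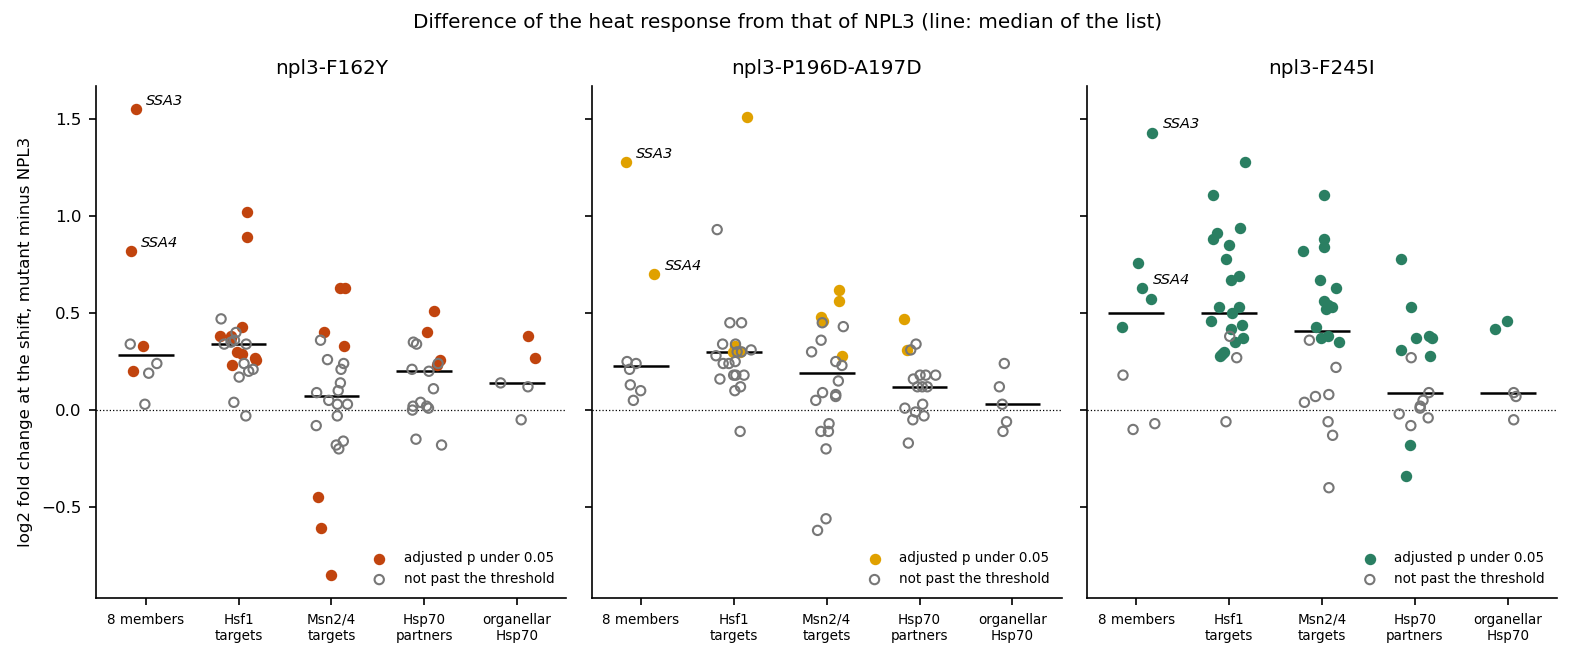
Difference of the response to the shift from that of NPL3 (log2 scale, mutant minus NPL3) for the 8 members and 4 lists, 1 panel per mutant; each circle is 1 gene, filled where the adjusted p was under 0.05, and bars are list medians. SSA3 lies at 1.55, 1.28 and 1.43, above the medians of the Hsf1 targets at 0.34, 0.30 and 0.50. Single targets lie well above their median, and HSP26 differed more than SSA3 in npl3-P196D-A197D.

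Across the 8 group means of log2 CPM, which share the same libraries, the genes whose pattern was most like each member were listed among 4988 named genes, with Pearson's r as a description. The 2 closest to SSA3 were RAD6, a ubiquitin-conjugating enzyme (r = 0.9960), and COS5 (r = 0.9917), which rose with the shift by 0.27 and 0.58 in npl3-F162Y and by 0.13 and 0.24 in NPL3, less than SSA3 did. The 2 closest to SSA4 were KAR2 (r = 0.9952) and EDC2, an mRNA decapping factor (r = 0.9947). SSE2 had CPR6, a cochaperone of Hsp90 (r = 0.9990), and KIC1 (r = 0.9990), SSE1 had PSR2 (r = 0.9929) and COS5 (r = 0.9920), SSA1 had RAV2 and AHA1, which stimulates Hsp90 (r = 0.9973 each), and SSA2 had MDJ1, a J-domain protein of mitochondria (r = 0.9960), and OSH2 (r = 0.9918). SSB1 had NHP2, a protein of box H/ACA RNA particles (r = 0.9984), and RPA12, a subunit of RNA polymerase I (r = 0.9976), and SSB2 had SUI2, a subunit of the initiation factor eIF2 (r = 0.9985), and NPL6 (r = 0.9980).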

How the data were processed

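Per the labels, total RNA was extracted with Trizol and libraries were made with a stranded mRNA kit. Per the submitters' processing notes, the authors used FastQC, STAR 2.7.2a, HTSeq and build R64. The deposited table holds raw counts per feature. Its strand setting was not given in the sources used here. The 5 rows that name no gene were removed. Of these, the row for reads outside features equalled 4.39 to 6.51% of a library and the row for ambiguous reads 0.787 to 1.01%.

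Counts were tested in R 4.3.3 with edgeR 4.0.16 (quasi-likelihood test, TMM factors, filter on low counts, 1 mean per group over 24 libraries, 16 residual degrees of freedom, Benjamini-Hochberg adjustment over 6518 genes, threshold 0.05) in 19 comparisons. All libraries of a group differed by more than counting noise (chi-square per gene at least 2.77).

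The members and lists were chosen with earlier results of these data known. Named genes were the 8 members, NPL3, 2 genes per list with the largest change in NPL3 with the shift, the 2 genes most like each member with a mean of at least 10 CPM, and other list genes where a list is described. Lists carry counts and medians and no set test.

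Replicate numbers were checked for pairing by residual correlations across genes. Every pair exceeded 0.1 in 1 comparison, npl3-F162Y over NPL3 at 37 °C (0.21, 0.55 and 0.28), a hint from the data and not from the labels. In every comparison between strains at 37 °C the libraries numbered replicate 2 correlated, at 0.34 to 0.55. These are the 4 libraries whose titles carry the other number series, and the labels do not say what it stands for. Other settings tried were RLE factors, library totals, no filter, DESeq2 1.42.0, fits on just the groups being compared, a block for replicate number, a term for the number series in the titles, omission of the 4 libraries numbered in another series (replicate 2 at 37 °C), each library left out and the near copies summed. Promoters and coding sequences were read from the RefSeq R64 genome.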

Additional observations from a re-analysis of the deposited data

Results flagged for a closer look

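The response to the shift differed from that of NPL3, by the test of the difference itself (edgeR's quasi-likelihood test of the interaction, adjusted p under 0.05), in 11 cases. In npl3-F162Y these were SSA3 (1.55 on the log2 scale), SSA4 (0.82), SSA2 (0.33) and SSE1 (0.20). In npl3-P196D-A197D they were SSA3 (1.28) and SSA4 (0.70). In npl3-F245I they were SSA3 (1.43), SSA1 (0.76), SSA4 (0.63), SSA2 (0.57) and SSE2 (0.43). Each response was larger than in NPL3. Without NPL3 replicate 1 at 37 °C, whose levels of all 4 SSA and both SSE genes were the lowest of its group, the values for npl3-F162Y were 1.47, 0.70, 0.24 and 0.16. Those for npl3-P196D-A197D were then 1.21 and 0.58. Those for npl3-F245I were 1.36, 0.62, 0.52, 0.48 and 0.27. Of these 11, SSE1 in npl3-F162Y no longer passed there. With all libraries, SSA1 and SSA2 in npl3-F245I and SSA2 in npl3-F162Y were called lower than in NPL3 at 30 °C (-0.56, -0.46 and -0.25). Their differences from NPL3 at 37 °C were 0.20, 0.12 and 0.08, and none passed.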

How the results depend on the processing

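Over 2348 results of single members under other settings, 2203 kept their side of the threshold, 83 lost the call, 62 gained one and 0 turned a called direction round. The direction was compared for called results only, and some estimates that passed in neither setting changed sign. With replicate number as a block 149 of 152 kept their side and 3 gained a call: SSE1 in npl3-F245I over NPL3 at 30 °C (adjusted p = 0.0397) and in its interaction (0.0367), and SSB2 in npl3-F245I over NPL3 at 37 °C (0.0451, all edgeR). In npl3-F162Y over NPL3 at 37 °C, the 1 comparison whose same-numbered libraries all correlated above 0.1, the block changed no member's call. Counts of members called moved by over 1.5 times as follows. With library totals they were 3 for npl3-P196D-A197D over NPL3 at 30 °C (6 in the report), 2 for the npl3-F162Y interaction (4) and 2 for npl3-P196D-A197D over npl3-F162Y at 30 °C (1). Fitting only the groups compared gave 7 for npl3-F245I over NPL3 at 30 °C (4), 2 for the npl3-F162Y interaction, 4 for npl3-P196D-A197D over npl3-F162Y at 30 °C and 5 for npl3-P196D-A197D over npl3-F245I at 30 °C (3). DESeq2 and the number series as a term each gave 2 for npl3-P196D-A197D over npl3-F162Y at 30 °C. Leaving out single libraries gave 3 to 5 for npl3-P196D-A197D over NPL3 at 30 °C (3 without NPL3 replicate 3), 5 to 8 for npl3-F245I over NPL3 at 37 °C (8 without NPL3 replicate 3), 1 to 5 for npl3-F245I over npl3-F162Y at 30 °C (1 without replicate 3 of either strain, 2 without npl3-F162Y replicate 1, 3 without npl3-F245I replicate 2) and 1 to 3 for npl3-P196D-A197D over npl3-F245I at 37 °C (1 without npl3-P196D-A197D replicate 3). The cause was not tested. Counts over all genes moved by as much in fits of only the groups compared: 1425 in place of 2850 for npl3-P196D-A197D over NPL3 at 37 °C, 309 in place of 694 for its interaction, and 2571, 3339 and 2792 in place of 1642, 2199 and 1839 between mutants at 30 °C. The npl3-P196D-A197D interaction also had 1047 with the number series as a term and 1275 without NPL3 replicate 1 at 37 °C. Depth limits none of the members' values, the lowest count being 966. Near copies limit SSA1, SSA2, SSB1 and SSB2, and also their sums and the shares and level orders that include them.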
